A study of Mus musculus with 6 samples.

Results

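Peptidergic nociceptors are pain-sensing neurons of the dorsal root ganglion that release neuropeptides from their endings in skin, viscera and spinal cord. The genes described here are 9 neuropeptide and marker genes of these neurons, chosen by name: Calca, Calcb, Tac1, Adcyap1, Kit, Bmpr1b, Smr2, Hpca and Prokr2. All 9 were among the 16613 genes of the deposited table, and all 9 passed the filter on low counts that left 15043 genes to be tested. Messenger RNA was sequenced from dorsal root ganglia of mice 6 months old. The knockout group carried floxed Kif2a alleles (Kif2a fl/fl) together with Avil cre, and the control group carried the floxed alleles without the Cre, with 3 libraries in each group. Nothing in the labels ties each library to its own animal, and the p-values therefore measure only the spread between these libraries, which may be technical in part.

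Calcitonin gene-related peptide (CGRP), substance P and PACAP are cut from longer precursors, stored in dense-core vesicles and released when a nociceptor fires. They widen vessels, let plasma leak into tissue and act on second-order neurons of the dorsal horn, each through a G-protein-coupled receptor. Kit, Bmpr1b and Prokr2 encode receptors at the surface of such neurons, Hpca encodes a calcium sensor, and Smr2 marks a subset of them in the mouse.

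Library totals ran from 16090726 to 19221415 counts, and the members had between 104 counts (Bmpr1b in control replicate 2) and 38933 counts (Calca in knockout replicate 2). Levels are given as CPM, counts relative to library size after TMM scaling. Kif2a, a kinesin that depolymerises microtubules, averaged 88.3 ± 2.45 CPM in knockout and 97.4 ± 7.17 CPM in control libraries (SD, n = 3 each). Its log2 fold change of -0.14 did not pass in edgeR (adjusted p = 0.957 without a block and 0.284 with the replicate block), and whole-gene counts do not separate the floxed part of the transcript from the rest. Avil, whose regulatory sequence drives the Cre, was at 439 to 518 CPM in knockout and 1003 to 1095 CPM in control libraries. Effects of Kif2a loss, of the Cre and of lower Avil cannot be told apart here. Control replicate 2 stood apart from the other libraries. The summed level of 5 skeletal muscle genes was 1119 CPM there and at most 49.0 CPM in each other library. The 10 pan-neuronal genes listed were all tested, and their summed level was 10304 to 11446 CPM in knockout and 9939 to 10527 CPM in control libraries. With the replicate block edgeR called 1 of them higher and 2 lower in the knockout, against 1.24% and 2.36% of all genes. In whole ganglia, fewer cells of a type and less RNA per cell cannot be told apart.

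Same-numbered knockout and control libraries deviated together from their group means, least clearly in pair 3. Knockout replicate 3 deviated with control replicate 2 about as much as with control replicate 3. Results are therefore given from the edgeR fit without a block and from a second fit in which the replicate number was the block. Without a block, edgeR called 0% of 15043 genes at an adjusted p of 0.05, although 5.48% had an unadjusted p under 0.05, and DESeq2 called 0.432% (65 genes). With the block edgeR called 3.6% of the genes, 1.24% as higher and 2.36% as lower in the knockout. DESeq2 with the same block called 2.81%. The edgeR fit without a block was planned as the main fit, and the block was an alternative to it. "Rose" and "fell" are used below only of genes that passed in the blocked edgeR fit. They therefore rest on a pairing read from these same data, and the main fit called none of these genes.

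Of the 9 members, 1 rose and 0 fell with the block, against 1.24% and 2.36% of all genes, and 0 were called without it. The gene that rose was Adcyap1, which encodes PACAP. The median log2 fold change of the members was 0.20 without the block, against 0.01 over all genes tested, and 7 of the 9 values were above 0, as were 52.3% of those of all genes. Some lists of other cells had medians of a like size. These were 0.23 for 9 macrophage genes, of which 2 rose, and 0.19 for 6 satellite glia genes, of which 1 rose. The median was 0.17 for 11 genes of myelinated neurons, of which 4 rose. Other lists differed, with 0.03 for Schwann cells, 0.07 for endothelium, 0.10 for the pan-neuronal genes and -0.77 for mast cells. The summed macrophage list was at 97.5 to 188 CPM in knockout and 80.7 to 155 CPM in control libraries, and the summed myelinated list at 13649 to 18545 CPM in knockout and 10375 to 14432 CPM in control libraries. Their part in the members' values was not tested. The groups did not overlap for 1 member, Smr2, which was higher in the knockout, as 5.02% of all genes were.

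**Figure D1:**
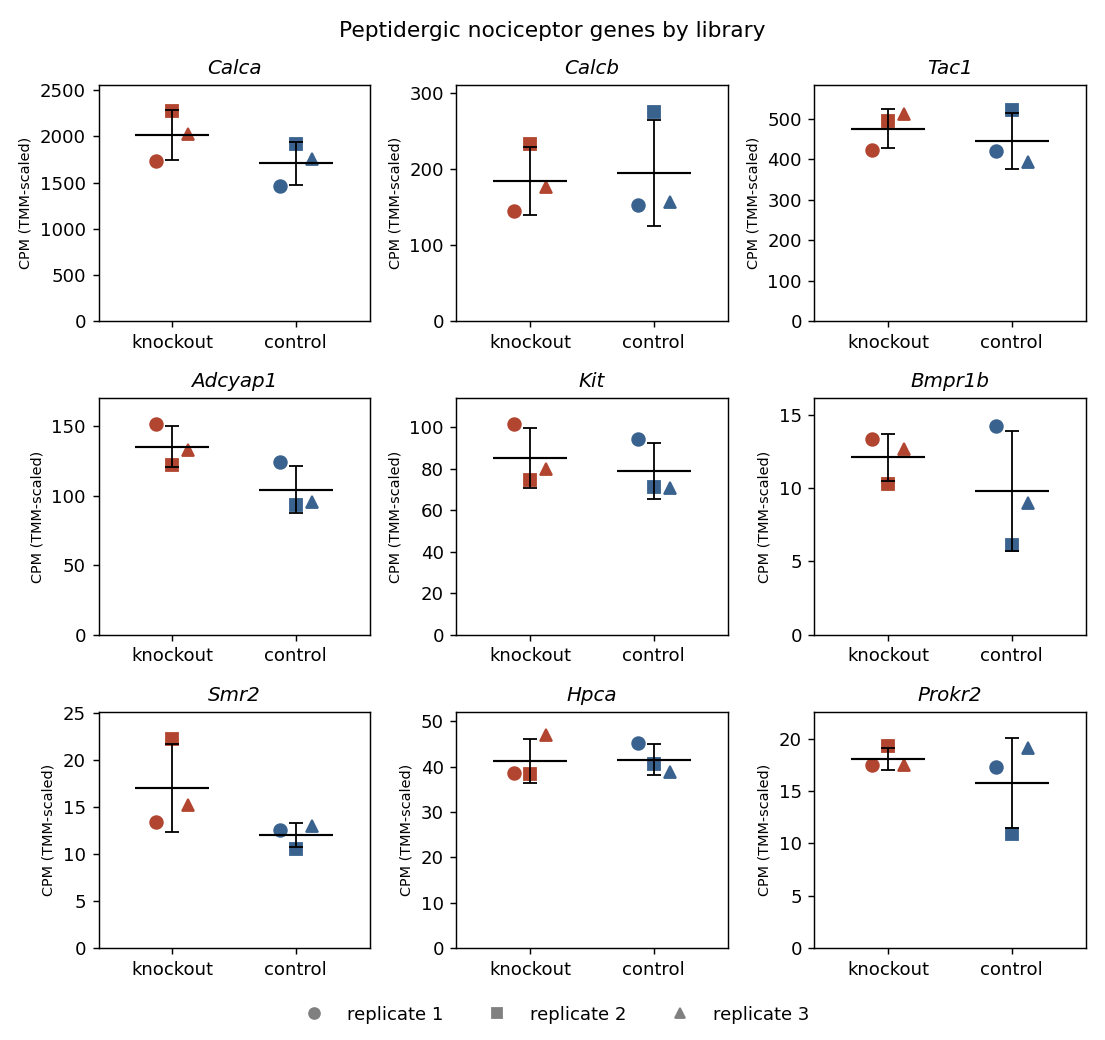
Level of each member in CPM (y axis, from 0) in the 3 knockout and the 3 control libraries. Symbols mark the replicate number, horizontal lines the group means and bars 1 SD. The groups overlap for every member except Smr2, and control replicate 2 is the lowest library for Adcyap1, Bmpr1b, Smr2 and Prokr2 and the highest for Calcb and Tac1.

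The members spanned a wide range of levels. Per kilobase of annotated exon and averaged over the 6 libraries, Calca was at 1105 CPM per kb, Calcb at 150.0, Tac1 at 135, Adcyap1 at 31.7, Hpca at 14.2, Smr2 at 10.8, Kit at 9.19, Prokr2 at 2.14 and Bmpr1b at 1.83 CPM per kb. Calca exceeded Calcb, Tac1 exceeded Adcyap1, Adcyap1 exceeded Hpca and Kit exceeded Prokr2 in 6 of 6 libraries. Hpca was above Smr2 in 5 of 6 libraries and Prokr2 above Bmpr1b in 4 of 6. Calcb and Tac1 changed places, with Calcb the higher in 3 of 6 libraries, and so did Smr2 and Kit, with Smr2 the higher in 3 of 6. This order depends on the exon lengths used. In CPM without that division, Tac1 was above Calcb and Kit above Smr2 in each library.

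The start regions of the 3 peptide genes Calca, Tac1 and Adcyap1 are printed because the second messenger cyclic AMP is a known inducer of these genes. RefSeq's promoter table (GRCm38.p6, 250 bases before to 50 after a start site) held 8 of the 9 members, and Calcb was not in it. Capitals mark TGACG or its reverse complement CGTCA, the half-site that CREB-type factors can bind. Both strands were searched, and where the 2 words overlap, both were counted. Of genes with several start sites, the window nearest to the start of a principal GENCODE transcript was used. Calca is shown for chr7:114636308-114636607 on the minus strand, Tac1 for chr6:7554811-7555110 on the plus strand and Adcyap1 for chr17:93198918-93199217 on the plus strand, each 5′ to 3′ along its gene.
Calca: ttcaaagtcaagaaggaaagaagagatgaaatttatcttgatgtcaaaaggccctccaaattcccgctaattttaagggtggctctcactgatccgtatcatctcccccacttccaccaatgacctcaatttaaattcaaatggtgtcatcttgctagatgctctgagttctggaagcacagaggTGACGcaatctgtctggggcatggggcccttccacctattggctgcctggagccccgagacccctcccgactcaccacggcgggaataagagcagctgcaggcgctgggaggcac
Tac1: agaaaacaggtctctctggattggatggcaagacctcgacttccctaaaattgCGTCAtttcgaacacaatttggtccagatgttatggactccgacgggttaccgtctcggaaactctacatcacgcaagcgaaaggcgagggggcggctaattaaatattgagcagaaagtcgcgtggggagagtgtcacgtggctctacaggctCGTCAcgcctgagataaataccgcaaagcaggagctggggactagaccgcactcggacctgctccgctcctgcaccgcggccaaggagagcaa
Adcyap1: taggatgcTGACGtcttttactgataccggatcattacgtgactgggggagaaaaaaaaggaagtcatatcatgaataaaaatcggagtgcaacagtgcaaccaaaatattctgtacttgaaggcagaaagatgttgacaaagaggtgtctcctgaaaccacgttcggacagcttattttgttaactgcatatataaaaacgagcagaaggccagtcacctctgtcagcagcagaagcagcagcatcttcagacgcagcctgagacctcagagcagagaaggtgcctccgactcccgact
The windows of Calca and Adcyap1 held 1 half-site each and that of Tac1 held 2. The windows of Kit, Bmpr1b, Smr2, Hpca and Prokr2 held none. At least 1 half-site was found in 20.8% of all 32851 windows of that table. A match of these letters is a description and not evidence of binding.

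Adcyap1 encodes PACAP, a peptide that raises cyclic AMP in its target cells and is known to increase in sensory neurons after nerve injury. The gene spans chr17:93199017-93206537 on the plus strand (GRCm38, as for the other positions given). Adcyap1 was at 151, 122 and 133 CPM in knockout replicates 1 to 3, against 124, 93.5 and 95.2 CPM in control replicates 1 to 3. Only control replicate 1 reached into the knockout range, above knockout replicate 2, and each knockout library was above the control library of its number. The means were 135 ± 14.96 CPM in knockout and 104 ± 17.1 CPM in control libraries (SD, n = 3 each), 130% of the control level. With the replicate block Adcyap1 rose by 0.38 on the log2 scale (SE 0.07, edgeR adjusted p = 0.0105), and the differences within pairs 1, 2 and 3 were 0.29, 0.38 and 0.48. Without the block the log2 fold change was 0.37 (SE 0.15) and did not pass (edgeR adjusted p = 0.905). The authors' deposited table, with no block in it as far as its headers show, gave Adcyap1 a log2 fold change of 0.37 and a false discovery rate of 0.347. The blocked call was lost with pair 1 left out (log2 fold change 0.42, edgeR adjusted p = 0.0666) and held without pair 2 (adjusted p = 0.00233) and without pair 3 (adjusted p = 0.00847).

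Calca encodes the CGRP alpha precursor and, by alternative splicing, calcitonin (chr7:114631478-114636357, minus strand). It had the highest level of the members, at 1739, 2276 and 2027 CPM in knockout replicates 1 to 3, against 1459, 1913 and 1756 CPM in control replicates 1 to 3. The groups overlapped, since knockout replicate 1 was below control replicates 2 and 3, but the difference within a pair hardly varied. In pairs 1, 2 and 3 it was 0.25, 0.25 and 0.21 on the log2 scale, higher in the knockout in 3 of 3 pairs. Calca averaged 2014 ± 268 CPM in knockout and 1709 ± 231 CPM in control libraries (SD, n = 3 each). With the block its log2 fold change was 0.24 (SE 0.07, 95% confidence interval 0.09 to 0.38) and did not pass in edgeR (adjusted p = 0.0767). Calca did pass in DESeq2 with the same block (adjusted p = 0.015), and in edgeR with the block and pair 3 left out (adjusted p = 0.0491). Without the block the edgeR adjusted p was 0.952.

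Calcb encodes CGRP beta (chr7:114718643-114723365, plus strand). Calcb was at 145, 232 and 176 CPM in knockout replicates 1 to 3 and at 153, 275 and 157 CPM in control replicates 1 to 3. Replicate 2 was the highest library of both groups, the groups overlapped, and the knockout was the higher in 1 of 3 pairs. The log2 fold change was -0.08 (SE 0.26) without and -0.05 (SE 0.08) with the block, where the 95% confidence interval ran from -0.23 to 0.13 and the edgeR adjusted p was 0.779. The value without a block changed sign without control replicate 2, to 0.26, and without knockout replicate 1, to 0.065. Calca and Calcb are similar in sequence, but of the distinct stretches of 50 bases in their GENCODE transcripts only 12 were common to both, 0.715% of those of Calca and 0.952% of those of Calcb. Within a library, the ratio of Calca to Calcb was 12.0, 9.80 and 11.5 in knockout replicates 1 to 3, against 9.52, 6.97 and 11.2 in control replicates 1 to 3. That ratio does not depend on how libraries are scaled. It was higher in the knockout within each pair, while knockout replicate 2 was below control replicate 3.

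Tac1 encodes the precursor of substance P and neurokinin A (chr6:7554879-7565834, plus strand). Its level was 422, 493 and 511 CPM in knockout replicates 1 to 3, against 421, 522 and 392 CPM in control replicates 1 to 3. The highest and the lowest of the 6 libraries were both controls. The log2 fold change with the block was 0.10 (SE 0.09, 95% confidence interval -0.10 to 0.30, edgeR adjusted p = 0.601), and pairs 1, 2 and 3 differed by 0.0014, -0.08 and 0.38. When libraries were scaled to the pan-neuronal genes, which moved the median of all genes by -0.10, the log2 fold change of Tac1 was -0.01, which was 0.08 above the median of all genes under that scaling. Of the summed CPM of the 4 peptide genes, Calca made up 70.8 to 72.9% in knockout and 67.6 to 73.2% in control libraries. The share of Tac1 was 15.8 to 18.0% in knockout and 16.3 to 19.5% in control libraries, and that of Adcyap1 was 3.90 to 6.15% in knockout and 3.34 to 5.74% in control libraries. The groups overlapped in each of these shares.

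**Figure D2:**
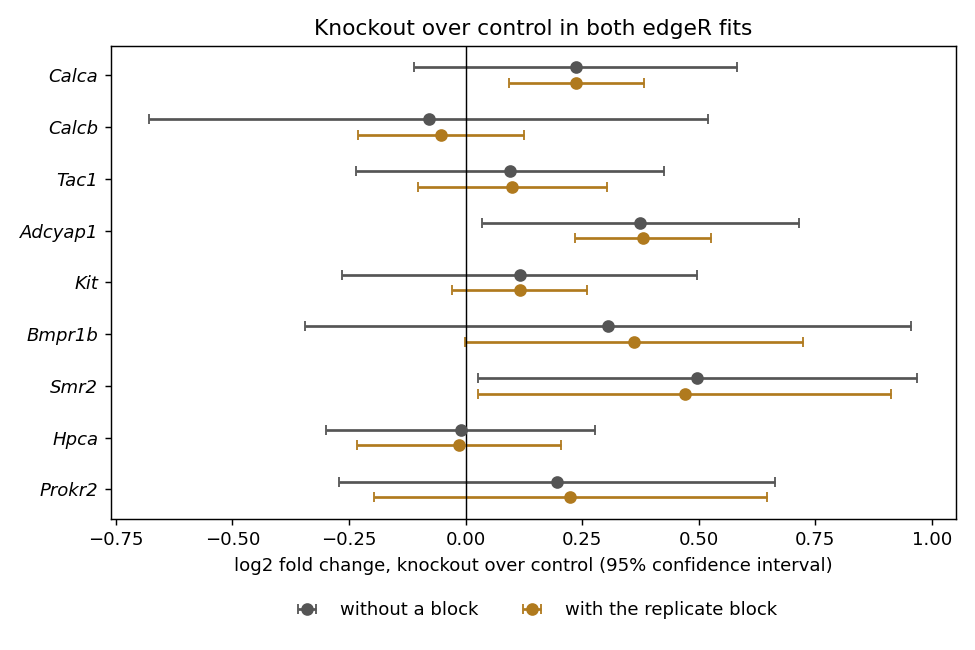
Log2 fold change of each member, knockout over control (x axis), with its 95% confidence interval, from the edgeR fit without a block (grey) and with the replicate block (ochre). The interval with the block is above 0 for Calca, Adcyap1 and Smr2, and of these Adcyap1 passed the adjustment over 15043 genes.

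Kit encodes the receptor tyrosine kinase for stem cell factor (chr5:75574916-75656722, plus strand). It was at 102, 74.3 and 79.6 CPM in knockout replicates 1 to 3, against 94.1, 71.1 and 70.6 CPM in control replicates 1 to 3. Both replicates 1 were the highest of their group, and the knockout was higher in 3 of 3 pairs, by 0.11, 0.06 and 0.17 on the log2 scale. The log2 fold change with the block was 0.12 (SE 0.07, 95% confidence interval -0.03 to 0.26, edgeR adjusted p = 0.379). Mast cells and melanocytes also carry Kit. The summed level of the mast cell list, of which 5 of 6 genes were tested, was 7.8 to 13.1 CPM in knockout and 10.5 to 28.8 CPM in control libraries. Of the melanocyte list 2 of 5 genes were tested, and its sum was 14.2 to 22.3 CPM in knockout and 17.9 to 26.3 CPM in control libraries. No listed gene of either cell type that was in the table was at 0 in all 6 libraries, and their part in the level of Kit was not tested.

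Adcyap1 and Kit varied alike from library to library, and Kit was the member nearest to Adcyap1, at a root mean square distance of 0.14 between their log2 profiles centred over the 6 libraries. The ratio of Adcyap1 to Kit within a library was 1.49, 1.64 and 1.67 in knockout replicates 1 to 3, against 1.32, 1.32 and 1.35 in control replicates 1 to 3. All knockout values were above all control values. This was 1 of 5 such ratios computed among the members, and in each of the others the groups overlapped. Since Adcyap1 was the member that rose and Kit varied alike with it, this outcome was likely in advance. The ratio is a description of these libraries and adds no support to that rise.

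Bmpr1b encodes a type I receptor for bone morphogenetic proteins (BMPs) (chr3:141837136-142169425, minus strand). It was the member with the lowest counts, at 13.3, 10.3 and 12.6 CPM in knockout replicates 1 to 3, against 14.2, 6.14 and 8.98 CPM in control replicates 1 to 3. The control libraries spanned more than the knockout range on both sides. Bmpr1b differed by 0.31 on the log2 scale (SE 0.28) without and 0.36 (SE 0.16) with the block, which did not pass (edgeR adjusted p = 0.263). In the fit without a block the value was 0.07 without control replicate 2 and 0.66 without control replicate 1. With the block it was 0.60 without pair 1 and 0.19 without pair 2.

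Prokr2 encodes a receptor of prokineticin 2 (chr2:132337733-132385447, minus strand). Its level was 17.5, 19.3 and 17.5 CPM in knockout replicates 1 to 3, against 17.3, 10.9 and 19.1 CPM in control replicates 1 to 3. Control replicate 2 alone was low. Prokr2 had a log2 fold change with the block of 0.22 (SE 0.18, edgeR adjusted p = 0.558), and pairs 1, 2 and 3 differed by 0.01, 0.82 and -0.13. Without control replicate 2 the value without a block was -0.0022.

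Smr2 belongs to the submaxillary gland androgen-regulated family (chr5:88086556-88109053, plus strand). It was at 13.5, 22.3 and 15.3 CPM in knockout replicates 1 to 3, against 12.5, 10.6 and 13.0 CPM in control replicates 1 to 3. All knockout libraries were above all controls, but the lowest knockout value was close to the highest control value, and knockout replicate 2 stood well above the rest. The members' largest log2 fold change was that of Smr2, 0.50 (SE 0.20) without and 0.47 (SE 0.19) with the block, and did not pass in edgeR (adjusted p = 0.905 and 0.236). It was 0.25 without knockout replicate 2 in the fit without a block, and 0.17 with the block and pair 2 left out.

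Hpca encodes hippocalcin, a calcium sensor of neurons (chr4:129111570-129122036, minus strand). Its level was 38.5, 38.4 and 46.9 CPM in knockout replicates 1 to 3, against 45.3, 40.6 and 38.7 CPM in control replicates 1 to 3. The groups overlapped, and both the highest and the lowest library were knockouts. Hpca had a log2 fold change of -0.01 (SE 0.10) with the block, with a 95% confidence interval from -0.23 to 0.20 and an edgeR adjusted p of 0.957. Exons of Hpca overlap those of Tmem54 on the other strand. Reads of the overlapping stretch may come from either gene, since the sources used do not say whether the libraries kept strand.

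**Figure D3:**
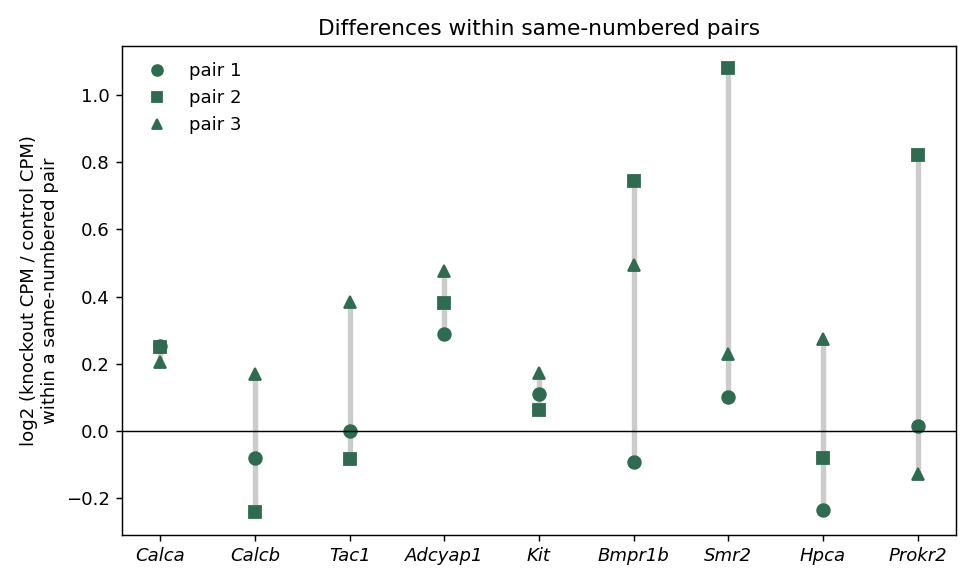
Log2 ratio of the knockout to the control level within each same-numbered pair (y axis) for the 9 members (x axis). Grey bars join the lowest and the highest pair. Calca, Adcyap1 and Kit lie above 0 with all 3 pairs close together, whereas pair 2 lies far above the others for Smr2 and Prokr2.

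Members were higher in the knockout in 3 of 3 pairs for Adcyap1, Calca, Kit and Smr2, as were 21.4% of all genes tested. The spread between pairs separated them. The pairs of Calca ran from 0.21 to 0.25 on the log2 scale and those of Kit from 0.06 to 0.17, while those of Smr2 ran from 0.10 to 1.08.

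The libraries also differed in posterior Hox genes, which mark position along the body axis, and these were examined after the members' values were seen. The summed level of the 6 genes of Hox paralogue groups 10 and 11 was 93.7, 63.7 and 76.6 CPM in knockout replicates 1 to 3, against 84.6, 43.4 and 58.7 CPM in control replicates 1 to 3. Hoxd10 was at 18.1, 7.19 and 8.27 CPM in knockout and at 14.9, 0.354 and 2.06 CPM in control replicates 1 to 3. Within both groups replicate 1 was the highest and replicate 2 the lowest, and in each pair the knockout was the higher. Adcyap1, Kit and Bmpr1b had the same highest library within each group, and control replicate 2 was the lowest of all 6 libraries for the Hox sum, Adcyap1, Bmpr1b, Smr2 and Prokr2. Calcb ran the other way, with its highest level in control replicate 2. The part of this difference in the members' values, and that of the muscle genes in control replicate 2, was not tested.

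**Figure D4:**
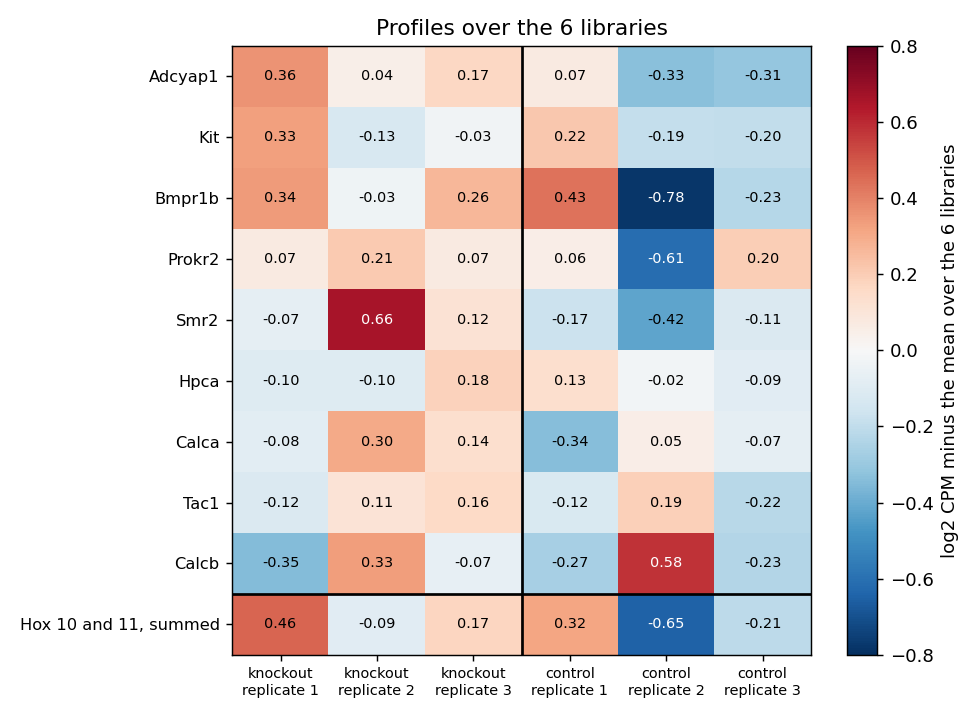
Log2 CPM of each member, and of the summed Hox genes of paralogue groups 10 and 11, minus its mean over the 6 libraries (colour and printed number; knockout libraries left of the vertical line). Adcyap1, Kit, Bmpr1b and the Hox sum are above their mean in both replicates 1 and below it in control replicates 2 and 3, and Calcb is 0.58 above its mean in control replicate 2.

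Likeness of profile to each peptide gene was measured by the same root mean square distance over the 6 libraries, over 6552 candidate genes, those that averaged 1 CPM or more and had a profile SD of 0.2 or more. The nearest genes to Adcyap1 were Rxra (0.036), Sema6a (0.040) and Dner (0.043). Those to Calca were Rpp21 (0.048), 1110008P14Rik (0.051) and Bpgm (0.051), and its nearest member was Tac1 (0.15). Calcb was followed most closely by Nrn1l (0.054), Map4k5 (0.069) and Sdcbp (0.082). Tac1 was nearest to Rab33a (0.062), Fra10ac1 (0.068) and Qdpr (0.082). For comparison, the profile SD of the peptide gene itself was 0.25 for Adcyap1, 0.1999 for Calca, 0.34 for Calcb and 0.16 for Tac1. Tac1, and Calca narrowly, were thus below the limit of 0.2. Genes that varied as little as these were not candidates. Calcb and Bmpr1b were the members farthest apart from each other among those measured, at 0.71.

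Of 12 genes of receptors for these peptides and their partners, 8 were tested and 0 passed in either direction. CGRP acts through Calcrl with Ramp1, PACAP through Adcyap1r1 and substance P through Tacr1. Calcrl averaged 8.16 ± 0.513 CPM in knockout and 7.60 ± 1.73 CPM in control libraries, and Adcyap1r1 averaged 5.29 ± 0.510 CPM in knockout and 4.59 ± 0.863 CPM in control libraries (SD, n = 3 each). Tacr1 was below 1 CPM in each library and was not tested. Ramp2, a partner of Calcrl and the gene of the list with the smallest p, had a log2 fold change of 0.23 (SE 0.19, edgeR adjusted p = 0.972). The median log2 fold change over the 8 genes was 0.15. Of 6 related peptide genes, 1 was tested, Adm, the adrenomedullin gene, at 2.72 ± 1.32 CPM in knockout and 1.55 ± 0.318 CPM in control libraries, with an edgeR adjusted p of 0.914.

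Among 10 enzymes and chaperones that mature or degrade neuropeptides, 0 passed and the median log2 fold change was -0.06. Qpct, which forms the pyroglutamate end of some peptides, had the smallest p, with 11.9, 10.3 and 10.9 CPM in knockout replicates 1 to 3, against 9.58, 10.2 and 6.86 CPM in control replicates 1 to 3. The groups did not overlap, with the knockout higher, as for 5.02% of all genes. Qpct did not pass, with a log2 fold change of 0.32 (SE 0.18, edgeR adjusted p = 0.933). Pam, the enzyme that amidates CGRP, substance P and PACAP, averaged 173 ± 6.15 CPM in knockout and 186 ± 19.2 CPM in control libraries.

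In the list of Kit ligand and signalling partners 0 of 12 passed, with a median of 0.03. Kitl, the gene of stem cell factor, had the smallest p. It was at 90.0, 95.9 and 84.0 CPM in knockout replicates 1 to 3, against 66.4, 64.2 and 79.3 CPM in control replicates 1 to 3. The groups did not overlap, with the knockout higher, as for 5.02% of all genes. The log2 fold change was 0.37 with the block (SE 0.09, edgeR adjusted p = 0.0673) and 0.36 without it (SE 0.12, adjusted p = 0.810).

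In the BMP pathway 1 of 22 tested genes rose and 0 fell, against 1.24% and 2.36% of all genes, and the median was 0.08. Id3 encodes a transcriptional inhibitor and is a known target of BMP signalling (chr4:136143497-136145755, plus strand). It was at 83.7, 87.9 and 115 CPM in knockout replicates 1 to 3, against 65.7, 69.8 and 66.1 CPM in control replicates 1 to 3, with no overlap between groups. With the block Id3 rose by 0.49 on the log2 scale (SE 0.10, edgeR adjusted p = 0.0255), and without it the adjusted p was 0.712. The groups did not overlap, with the knockout higher, for 5 of the 22 genes, against 5.02% of all genes. The summed level of the list was 834 to 855 CPM in knockout and 720 to 786 CPM in control libraries. The 5 genes were Id3, the related target Id1, the receptor genes Bmpr2 and Acvr1, and Bambi, a decoy receptor, and apart from Id3 they did not pass. Id1 averaged 15.1 ± 0.448 CPM in knockout and 11.9 ± 1.56 CPM in control libraries (SD, n = 3 each). Satellite glia, endothelium and Schwann cells also carry BMP pathway genes. The summed satellite glia list was at 2032 to 2565 CPM in knockout and 1790 to 2155 CPM in control libraries, with 6 of 6 genes tested, of which 1 rose. The groups did not overlap, with the knockout higher, for 3 of these 6 genes, and for 0 genes of the Schwann cell and endothelial lists. The Schwann cell list summed to 4316 to 6021 CPM in knockout and 4744 to 5474 CPM in control libraries, and the endothelial list to 82.1 to 88.3 CPM in knockout and 62.0 to 98.1 CPM in control libraries. Their part in the level of Id3 was not tested.

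Prok2, the ligand of Prokr2, was not tested. Prokr1, the other prokineticin receptor, was at 34.7 to 39.4 CPM in knockout and 40.0 to 42.6 CPM in control libraries. The groups did not overlap, with the knockout lower, as for 6.12% of all genes. The log2 fold change of Prokr1, -0.14, did not pass (edgeR adjusted p = 0.964). Among the calcium sensors related to Hpca, Vsnl1 had the smallest p, with a log2 fold change of 0.22 with the block (SE 0.06, edgeR adjusted p = 0.0878). Over the 6 genes tested of this list 0 passed.

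Of 11 further genes enriched in peptidergic nociceptors, all were tested and 0 passed, 8 log2 fold changes were above 0 and the median was 0.11. Trpv1, the capsaicin and heat receptor, averaged 132 ± 44.6 CPM in knockout and 141 ± 25.1 CPM in control libraries. Oprm1, the mu opioid receptor, had the smallest p, with a log2 fold change of -0.71 (SE 0.36, edgeR adjusted p = 0.930).

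Markers of non-peptidergic nociceptors are given only for comparison, since their direction was known when the list was written. Of 16 tested, 12 fell and 0 rose with the block, against 2.36% and 1.24% of all genes. The median log2 fold change was -1.004. The groups did not overlap for 11, with the knockout lower, against 6.12% of all genes. The ratio of the summed members, which were mostly Calca in CPM, to this summed list within a library is free of scaling. It was 1.81, 1.74 and 2.12 in knockout replicates 1 to 3, against 0.860, 0.873 and 1.07 in control replicates 1 to 3. All knockout ratios were above all control ratios, but the known fall of the list made this likely in advance, and it says little of the members. The summed members alone were at 2641 to 3287 CPM in knockout and 2341 to 2942 CPM in control libraries and overlapped, and the summed non-peptidergic list was at 1427 to 1889 CPM in knockout and 2391 to 3368 CPM in control libraries and did not.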

How the data were processed

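RNA of mouse dorsal root ganglia was sequenced in 6 libraries, grouped by the labels. The submitters' processing notes name mm10 and the tools STAR, cutadapt and DESeq2, without versions, and the sources used here do not name the counting tool or the annotation. Whole-number raw counts per gene symbol were what the authors deposited and what each test used. The authors also deposited a normalized signal, found to be the count divided by 1 size factor per library, with its mean, 6 columns of log2-scale transformed values that were not used, log2 fold changes, and p-values with a false discovery rate per the file headers. The smallest total count of a deposited gene was 6.

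Counts were tested in R 4.3.3 with edgeR 4.0.16 (filterByExpr, TMM scaling, robust quasi-likelihood test of knockout against control, Benjamini-Hochberg adjustment over 15043 genes). SEs were taken from the log2 fold change and its F statistic. Over 15043 genes the deviations of same-numbered libraries from their group means had Pearson correlations of 0.53, 0.30 and 0.17. All were above 0.1, so the replicate numbers were taken to pair the samples. The pairing comes from the data and is least clear for pair 3. Knockout replicate 3 with control replicate 2 reached 0.14. By Spearman correlation it reached 0.25 there, against 0.18 with control replicate 3. Alternatives used DESeq2 1.42.0, limma-voom (limma 3.58.1), other scalings and filters, and omission of libraries. The scripts were tested on simulated data. There the fit without a block recovered 0 of 50 genes changed 1.3-fold and 3 of 50 changed 1.5-fold. The fit with the block recovered 14 of 50 and 33 of 50, in counts simulated with a replicate effect and a capped spread. A member that was not called may therefore still differ by such folds. Gene positions and exon lengths are from GENCODE M21 (GRCm38, the same assembly as mm10), in which all 9 symbols matched. The members and lists were chosen with earlier results of these data known. Of each pathway list, the genes past the threshold in either edgeR fit were named, or else the gene of smallest p; others were named for their role after their values were seen.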

Additional observations from a re-analysis of the deposited data

How the results depend on the processing

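Without a block, edgeR called 0 genes and 0 members under its own settings, under RLE, upper quartile and library-total scaling, under both other filters, with limma-voom and in each omission of a library, whereas DESeq2 called 65 genes and the pan-neuronal scaling 2 genes, with 0 members among them. The replicate block gave 542 genes and 1 member, DESeq2 with the block 423 genes and 2 members (Adcyap1 and Calca), and the pan-neuronal scaling with the block 1081 genes and 1 member (Adcyap1, edgeR adjusted p = 0.0398). With the block, 208 genes and 0 members were called without pair 1, 819 genes and 1 member without pair 2, and 897 genes and 2 members without pair 3. The cause of these shifts was not tested.

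The median of the members stayed between 0.11 and 0.25 in all 21 settings, Adcyap1 between 0.27 and 0.50, Calca between 0.12 and 0.33, Bmpr1b between 0.07 and 0.66 and Smr2 between 0.17 and 0.64. The other members changed sign in some settings. Hpca stood at 0.0057 with upper quartile scaling and Tac1 at -0.0080 with pan-neuronal scaling and -0.0015 with that scaling and the block. With a library left out and no block, Calcb ran from -0.28 to 0.26, Kit from -0.033 to 0.25, Hpca from -0.11 to 0.042 and Prokr2 from -0.0022 to 0.36. With the block and a pair left out, Hpca reached 0.087 without pair 1 and 0.023 without pair 2, Calcb 0.049 and Prokr2 -0.051 without pair 2, and Tac1 -0.041 without pair 3. The replicate block changed the call of Adcyap1 in edgeR and those of Adcyap1 and Calca in DESeq2, and of no other member. With 3 libraries a group, the 95% interval without a block ran from -0.27 to 0.50 for Kit, from -0.68 to 0.52 for Calcb and from -0.35 to 0.96 for Bmpr1b; with the block it ran from -0.03 to 0.26 for Kit and from -0.23 to 0.13 for Calcb.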
